A study of Mus musculus with 4 samples.

Results

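The mouse tropomyosin genes Tpm1, Tpm2, Tpm3 and Tpm4 and the near-identical gene Tpm3-rs7 were read out in platelet RNA, and all 5 were listed in both tables of the study, which together list 17995 genes. The genes were chosen by name after earlier results of these data were known, so their values below are a description. RNA sequencing was done on 4 libraries, 1 per group: WT littermates at 3 months, mice labelled HuR cKO at 3 months, Young mice (genotype WT) at 3 months and Old mice (genotype WT) at 24 months. All mice were male, per the series' design text, and each library held platelets pooled from 7 animals. The cKO label stands for a conditional deletion of HuR, the RNA-binding protein encoded by Elavl1, in platelets. The sources used here do not name the Cre driver, and the labels name no sort or gate of the platelets.

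With 1 library per group the spread between animals cannot be measured, so no test was made and no p-value is given. Intervals below are exact 95% Clopper-Pearson intervals and cover counting error only. The libraries held between 17702341 and 18472149 recovered reads. Elavl1 had 876 reads in WT, 621 in Young, 527 in Old and 1481 in the library labelled cKO. It was therefore 1.66-fold higher (interval 1.53 to 1.81) in the library labelled cKO than in WT, although the label names a deletion. Reads counted over a whole gene do not show whether a part of it was deleted, and the label was not tested further. Every direction drawn from the library labelled cKO below carries this limit. The 14 platelet markers summed to between 70550 and 85550 scaled RPM (defined below) in the 4 libraries, and none of them was at 0. Gp1bb was near the floor, with 9 reads in WT, 14 in Young, 12 in Old and 1 in the library labelled cKO.

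Tropomyosins are coiled-coil proteins that bind end to end along actin filaments and govern which other proteins, such as myosin and cofilin, can act there. Each gene gives several isoforms through alternative promoters and exons, some made in muscle and others in most cells. In platelets, tropomyosin-coated filaments belong to the cytoskeleton that keeps the disc shape and contracts in the clot, and Tpm4 is known for its part in platelet formation by megakaryocytes. Platelets have no nucleus, so most of their RNA was made in the megakaryocyte.

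On genome build mm10, Tpm4 (ENSMUSG00000031799) lies on the plus strand at chr8:72134975-72153142, Tpm3 (ENSMUSG00000027940) on the plus strand at chr3:90072649-90100902, Tpm1 (ENSMUSG00000032366) on the minus strand at chr9:67022590-67049406 and Tpm2 (ENSMUSG00000028464) on the minus strand at chr4:43514711-43523765. Tpm3-rs7 (ENSMUSG00000058126) lies on another chromosome than Tpm3, at chr14:113314608-113316754 on the plus strand. It has 1 annotated transcript with 1 exon, whereas transcripts of Tpm3 have up to 10 exons. GENCODE and the deposited tables call it protein-coding, and the RefSeq gene table (GRCm38.p6) lists it as a pseudogene.

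The processed transcript of Tpm3 and the single exon of Tpm3-rs7 are almost the same sequence, which bears on every value of these genes. Over 2108 aligned columns the copy of 2147 bases and the best matching Tpm3 transcript (8 exons, 2230 bases) shared 2089 identical bases, an identity of 99.1%, with 13 mismatches and 3 gaps. Of the mismatches, 10 lay in the 3′ UTR, as did all 3 gaps, and 3 lay in the coding part, which is 747 bases long in both, stop codon included. Counted from the A of the start codon, the coding differences of the copy were G72A, which leaves the amino acid as it is, and G98A and G127A, which change residues 33 and 43. The frame of the copy holds no stop before its end at 248 codons. The stretch with these 3 differences, coding bases 40 to 129 of both genes, is printed from the mm10 annotation because it holds every coding base at which they differ. The capitals mark the differing bases.
Tpm3: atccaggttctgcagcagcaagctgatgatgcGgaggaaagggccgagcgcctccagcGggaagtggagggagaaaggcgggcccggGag
Tpm3-rs7: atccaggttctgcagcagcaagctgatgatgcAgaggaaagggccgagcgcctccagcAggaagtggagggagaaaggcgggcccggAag

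The coding sequence after these differences was identical in gene and copy for 620 bases, within a run of 624 identical bases at positions 196 to 819 of the copy transcript. The next window, coding bases 133 to 222 of Tpm3 and the aligned bases of its relatives (241 to 330 in Tpm2), is shown to compare the copy with the other members. Capitals mark bases that differ from Tpm3.
Tpm3: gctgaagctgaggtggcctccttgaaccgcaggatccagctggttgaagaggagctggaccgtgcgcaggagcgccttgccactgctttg
Tpm3-rs7: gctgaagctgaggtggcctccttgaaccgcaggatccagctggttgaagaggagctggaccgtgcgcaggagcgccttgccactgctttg
Tpm4: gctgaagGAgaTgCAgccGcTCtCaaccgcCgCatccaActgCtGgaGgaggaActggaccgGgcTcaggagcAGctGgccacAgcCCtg
Tpm1: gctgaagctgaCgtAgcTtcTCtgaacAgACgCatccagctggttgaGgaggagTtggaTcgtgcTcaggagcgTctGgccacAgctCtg
Tpm2: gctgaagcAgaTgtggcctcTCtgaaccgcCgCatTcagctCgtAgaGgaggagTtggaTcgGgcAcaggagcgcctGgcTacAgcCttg

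In this window Tpm3-rs7 has 0 differences from Tpm3, Tpm1 has 17, Tpm2 has 18 and Tpm4 has 24. The best local match of the copy reached an identity of 79.3% with Tpm1 over 541 columns, 75.8% with Tpm2 over 534 and 74.3% with Tpm4 over 654. Of all 50-base windows of the copy, 69.4% (1457 of 2098) occur unchanged in a Tpm3 transcript. That share was 49.8% for 100-base windows and 33.8% for 150-base windows. No 50-base window of the copy occurs in a transcript of Tpm1, Tpm2 or Tpm4. The read length, and how reads that match several places were counted, were not stated in any source used here. Tpm3 and Tpm3-rs7 are therefore given singly and as a sum, and neither single value can be taken as the output of its gene alone.

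**Figure D1:**
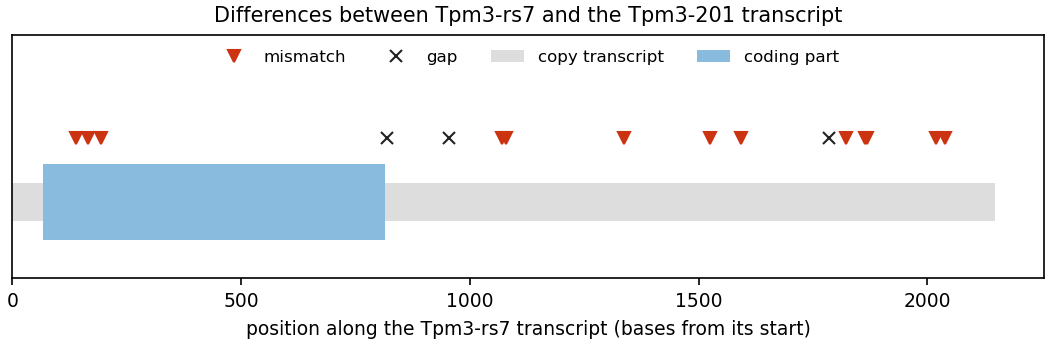
Differences between Tpm3-rs7 and the best matching Tpm3 transcript along the copy transcript, by position in bases from its start (grey bar, copy transcript; blue bar, its coding part; red triangles, mismatches; crosses, gaps). The 3 coding mismatches sit near the start of the coding part and the other 10 in the 3′ UTR, with a run of 624 identical bases between.

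Tpm4 was the most abundant tropomyosin RNA in every library. Levels are given as scaled RPM, the reads per 1000000 of a library size set by trimmed-mean (TMM) scaling over all 4 libraries. Tpm4 had 78544 reads in WT, 65446 in Young, 79786 in Old and 67340 in the library labelled cKO, which are 4461, 3402, 4541 and 3761 scaled RPM. It made up between 71.5% and 76.9% of all tropomyosin reads. Old and WT were the high libraries for Tpm4 and Young was the lowest.

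Tpm3, whose short isoforms are found in most cells, was the second most read tropomyosin in 3 of the 4 libraries. It had 16696 reads in WT, 19174 in Young, 5643 in Old and 17049 in the library labelled cKO (948.3, 996.6, 321 and 952.2 scaled RPM). Old stood alone, below the other libraries. Tpm3-rs7 had 1576 reads in WT, 1457 in Young, 15373 in Old and 1351 in the library labelled cKO (89.5, 75.7, 875 and 75.5 scaled RPM). Here Old stood alone on the high side, 9.77-fold (interval 9.28 to 10.3) above WT, the next library.

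The sum of Tpm3 and Tpm3-rs7 was far more even than either of them. It came to 18272 reads in WT, 20631 in Young, 21016 in Old and 18400 in the library labelled cKO, or 1038, 1072, 1196 and 1028 scaled RPM. The share of these reads assigned to the copy was 8.63% (8.22 to 9.04) in WT, 7.06% (6.72 to 7.42) in Young, 73.15% (72.5 to 73.8) in Old and 7.34% (6.97 to 7.73) in the library labelled cKO. The 3 libraries from mice of 3 months spanned 1.56 percentage points, and Old lay 66.1 points above Young.

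**Figure D2:**
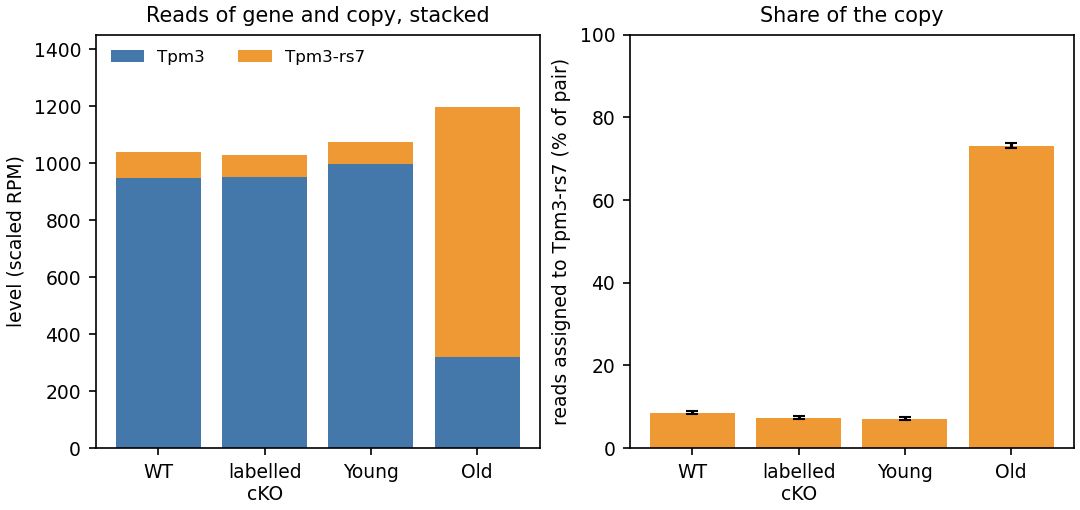
Left, stacked levels of Tpm3 (blue) and Tpm3-rs7 (orange) in scaled RPM for each library. Right, the share of the pair's reads assigned to Tpm3-rs7 in percent, with exact 95% intervals for counting error. The stacks reach 1028 to 1196 scaled RPM, while the copy takes 73.15% of the stack in Old and under 9% in the other libraries.

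Tpm1 and Tpm2, known best as the genes of striated and smooth muscle tropomyosins, were read at lower levels. Tpm1 had 4386 reads in WT, 4404 in Young, 6154 in Old and 5558 in the library labelled cKO (249, 229, 350.3 and 310.4 scaled RPM). Tpm2 had 957, 1102, 2458 and 1903 reads in the same order (54.4, 57.3, 139.9 and 106 scaled RPM). For both genes Old was highest and the library labelled cKO came next, with WT and Young at the low end. The skeletal and cardiac muscle markers were close to absent: 9 to 11 of 12 were at 0 or not listed in each library, and their sum was between 3.18 and 5.865 scaled RPM. Of the smooth muscle markers, Myh11 had 7 to 22 reads and Acta2 0 to 34, and Lmod1 was not listed in either table. Others of that list were read more often: Cnn1 had 76 to 667 reads, Smtn 1562 to 3171 and Mylk 21109 to 35464.

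**Figure D3:**
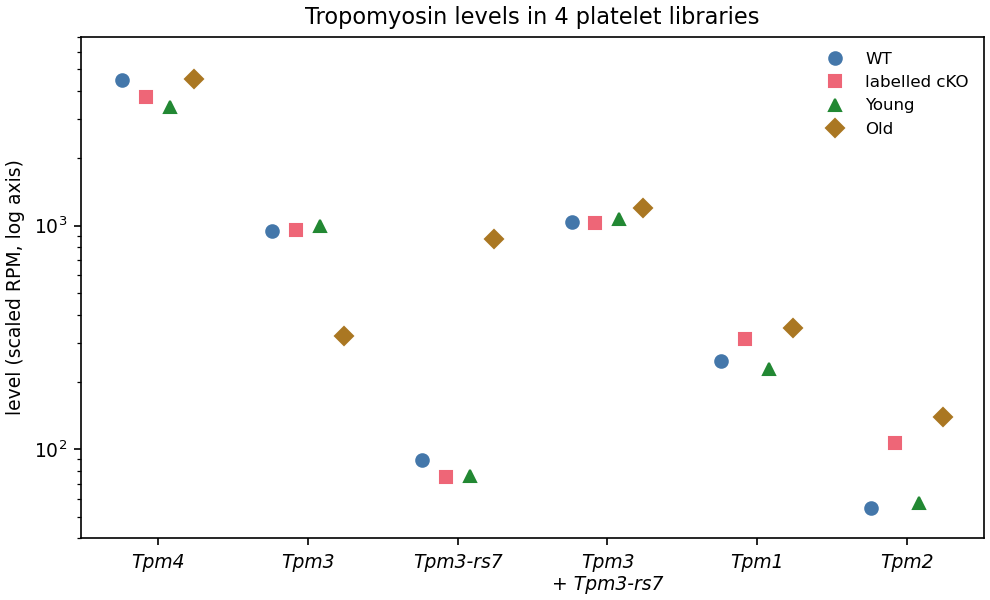
Level of each tropomyosin gene and of the Tpm3 pair in scaled RPM on a log axis, 1 point per library. The 4 points of the pair lie close together, whereas those of Tpm3 and Tpm3-rs7 are split with Old (brown diamonds) on opposite sides.

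Between genes, levels were compared per kilobase of the gene length given in the tables. In Young the order was Tpm4 (1544 scaled RPM per kb), Tpm3 (164), Tpm1 (35.30), Tpm3-rs7 (35.27) and Tpm2 (19.7), so Tpm1 and Tpm3-rs7 were nearly level there. In Old the order was Tpm4 (2061), Tpm3-rs7 (407.5), Tpm1 (54.0), Tpm3 (52.8) and Tpm2 (48.1). Those lengths join all exons of a gene, 6085 bases for Tpm3 against 2147 for its single-exon copy. With the longest coding transcript as the length (an alternative chosen after the data were seen), Tpm3 stood at 446 scaled RPM per kb in Young and 144 in Old. Tpm1 was then at 79.2 and 121, and Tpm2 stayed lowest among the 4 parent genes with 26.3 and 64.3.

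Among neighbours in the order of libraries, 4 pairs could not be told apart by counting error. These were the library labelled cKO and WT for Tpm3 (ratio 1.004, interval 0.983 to 1.026), Young and the library labelled cKO for Tpm3-rs7 (1.004, 0.931 to 1.082), Young and WT for Tpm2 (1.054, 0.9655 to 1.15), and WT and the library labelled cKO for the pair (1.01, 0.989 to 1.03). Tpm4 in Old and WT differed by a factor of 1.018 (1.008 to 1.028). A distinct ratio here says that 2 libraries differ, not that 2 groups of mice do.

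Between the library labelled cKO and WT, both at 3 months, no tropomyosin gene moved by the size used here: at least 100 reads in the larger library and an interval whose nearer bound is at least 2-fold from 1. The count was 0 of 5 members, and 4.22% of the 6273 genes with enough reads passed over the whole table (2.52% higher, 1.71% lower). Ratios for these libraries were computed with TMM over that pair. Tpm2 was 1.95-fold higher (1.81 to 2.11) in the library labelled cKO, just short of the rule, and Tpm1 was 1.245-fold higher (1.196 to 1.296). Tpm4 was at 0.842 of WT (0.834 to 0.851) and Tpm3-rs7 at 0.842 (0.783 to 0.906), whereas Tpm3 was at 1.00 (0.982 to 1.025).

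Summed, Tpm3 and Tpm3-rs7 were at 0.989 of WT (0.969 to 1.01) and all 5 genes at 0.896 (0.888 to 0.904). Scaling by total reads alone gave 1.023 for the pair and 0.927 for the 5 genes. Young, also of 3 months and genotype WT, serves as a further reference, although the labels do not call it a littermate group. Against Young the library labelled cKO was at 1.13 for Tpm4, 1.02 for Tpm3-rs7, 0.975 for Tpm3, 1.38 for Tpm1, 1.89 (1.76 to 2.04) for Tpm2 and 1.12 for the 5 genes summed. Tpm4 and the sum of 5 thus lay below 1 with WT and above 1 with Young as the reference, and Tpm1 and Tpm2 lay above 1 with both. The interval of Tpm3 against WT and that of Tpm3-rs7 against Young (0.944 to 1.096) hold 1, so no side is resolved there.

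Erythroid markers differed between these libraries, with 10 of 13 higher and 1 lower in the library labelled cKO than in WT (2.52% and 1.71% over all genes). Their sum was 8520 scaled RPM in WT, 20430 in Young, 12090 in Old and 16030 in the library labelled cKO, and Ahsp was not listed in either table. The part of the erythroid markers in the tropomyosin values was not tested. The erythroid sum was highest in Young, where Hba-a1 gave 280302 of its 393043 reads. Against Young, the 16 markers with at least 20 reads had a median log2 ratio of 0.74 in the library labelled cKO. That of all genes was -0.004. In pooled platelets a change in the number of cells of a kind and a change in RNA per cell cannot be told apart.

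Between Old at 24 months and Young at 3 months, Tpm3-rs7 rose, Tpm2 rose and Tpm3 fell by the same size rule, while Tpm1 and Tpm4 did not pass it. The count was thus 3 of 5 members (2 higher, 1 lower), and 8.56% of 6519 genes passed over the table (4.26% higher, 4.3% lower). That is 278 genes higher and 280 lower, and 225 and 425 when total reads set the library sizes. The sum of Tpm3 and Tpm3-rs7, which share reads, did not pass the rule. With that pair taken as 1 unit, Tpm2 alone passed. Tpm3-rs7 was 11.6-fold higher in Old (10.95 to 12.2) and Tpm3 was 3.10-fold lower (3.01 to 3.20). The sum of the pair was 1.12-fold higher (1.09 to 1.14), so in reads the opposite changes of gene and copy nearly cancelled. The size of the change in the sum depended on the scaling: it was 1.001 with total reads per library and 1.23 with upper-quartile scaling. Upper-quartile scaling shifts every log2 ratio of Old over Young by 0.14 and total reads by -0.16, relative to TMM.

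Tpm2 was 2.44-fold higher in Old (2.27 to 2.625), just inside the rule. It was 2.57-fold higher (2.39 to 2.78) when WT was the reference. Tpm1 was 1.53-fold higher (1.47 to 1.59) against Young and 1.41-fold against WT. Tpm4 was 1.33-fold higher (1.32 to 1.35) against Young but 1.02-fold (1.01 to 1.03) against WT. WT and Young share genotype and age, and Tpm4 was 1.31-fold higher (1.298 to 1.325) in WT than in Young, so the difference for Tpm4 between Old and Young was about as large as that between these 2 libraries. For Tpm2 the ratio of WT to Young was 0.949 (0.869 to 1.04). All 5 genes summed were 1.31-fold higher in Old than in Young (1.30 to 1.32) and 1.07-fold higher than in WT. The authors' deposited table gives log2 fold changes for Old over Young of 3.53 for Tpm3-rs7, 1.29 for Tpm2, 0.61 for Tpm1, 0.42 for Tpm4 and -1.63 for Tpm3. The 14 platelet markers had a median log2 ratio of 0.61 in Old over Young and 0.46 in Old over WT. Over Young, Tpm1 was thus at the median of the platelet markers, Tpm4 below it and Tpm2 above it.

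**Figure D4:**
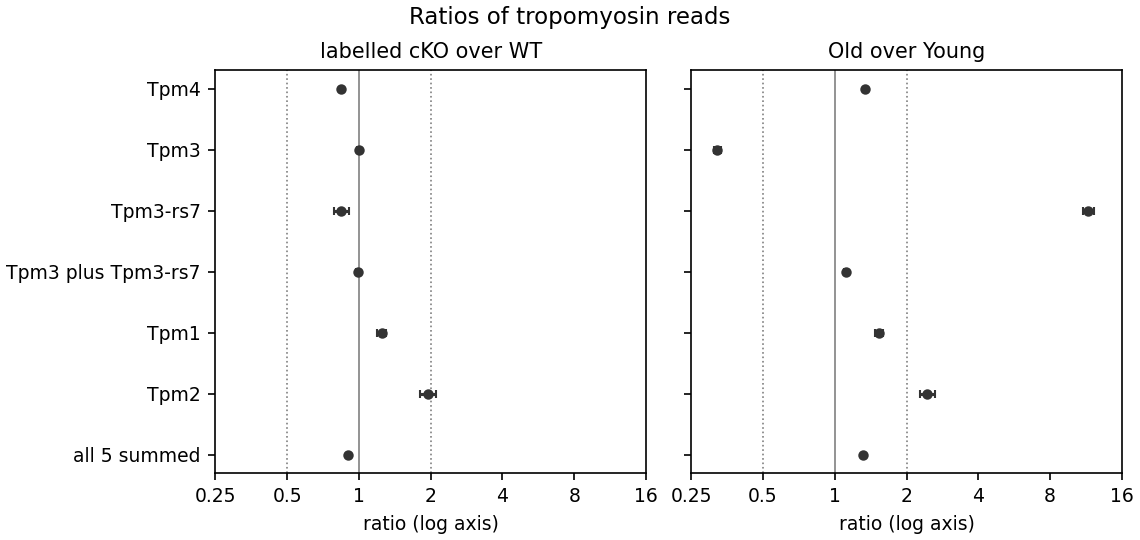
Ratios of reads over TMM-scaled library sizes on a log axis, for the library labelled cKO over WT (left) and Old over Young (right), with exact 95% intervals; dotted lines mark 2-fold. In Old over Young, Tpm3 at 0.322 and Tpm3-rs7 at 11.6 lie on opposite sides of 1 and their sum at 1.12 lies near it.

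Among markers of other cells, 12 of the 12 neutrophil genes with at least 100 reads were higher in Old than in Young (4.26% of all genes). Of these, S100a8, S100a9, Retnlg and Csf3r had at least 100 reads in Young as well. The others reached that number only in Old, so only a higher call was open to them. All 14 neutrophil markers summed to 70.6 scaled RPM in WT, 30.1 in Young, 898 in Old and 40.9 in the library labelled cKO. Only 10 of the 14 were listed in the table of WT and the library labelled cKO, and the others counted as 0 in these sums. Those not listed there were Ltf, Camp, Ly6g and Ngp. In Young, Ltf, Camp and Ly6g were at 0 and Ngp had 3 reads. B cell markers summed to 81.6 scaled RPM in Old and to between 260 and 342 in the other libraries. Smooth muscle markers without Mylk, which platelets use themselves, summed to 98.7 in WT, 126 in Young, 194.5 in Old and 177 in the library labelled cKO, most of them reads of Smtn. By this sum the higher libraries, Old and the one labelled cKO, were also those with the higher Tpm1 and Tpm2. With Mylk included the sums were 1453 in WT, 1347 in Young, 1396 in Old and 2157 in the library labelled cKO. Old then lay below WT, so the match with Tpm1 and Tpm2 held only without Mylk. Cnn1 was 3.05-fold higher in Old than in Young, and Smtn was at 1.52 and Myh11 at 2.03 (0.754 to 6.02). Acta2, Des, Synpo2 and Pdgfrb were at 0 in Old, and Lmod1 was not listed. The part of these cells in the tropomyosin values was not tested.

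To see whether other copies parted from their parents, every pair of a gene and its named copy (symbols ending in -rs or -ps) with at least 100 reads over the pair was read the same way. Of 163 such pairs in Old and Young, gene and copy each had enough reads to pass the size rule in 37, and of these only Tpm3 and Tpm3-rs7 passed in opposite directions. In the library labelled cKO and WT, 36 of 162 pairs had enough reads and 0 passed in opposite directions. A wider search took every single-exon gene that shares 100 identical bases with a gene of several exons, an alternative chosen after the data were seen. It gave 790 pairs in Old and Young, of which 128 had enough reads in both genes and 3 passed in opposite directions. It gave 835 pairs in the library labelled cKO and WT, of which 127 had enough reads and 0 passed in opposite directions. The other pairs were the copies Rps3a2 and Gm7600 of Rps3a1, the gene of a protein of the small ribosomal subunit.

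Rps3a1 had 6393 reads in WT, 6046 in Young, 2173 in Old and 5524 in the library labelled cKO, and Rps3a2 had 27, 23, 780 and 29. The share of Rps3a2 was thus 0.421%, 0.379%, 26.4% and 0.522%, again with Old alone on the high side. Gm7600 took 0.0469%, 0.0991%, 4.61% and 0.181%. Unlike for the Tpm3 pair, the sum of Rps3a1 and Rps3a2 was lower in Old, at 0.533 of Young. The copy of Tpm4 found by this search, Gm7809, had 88, 76, 78 and 64 reads, at most 0.116% of its pair with Tpm4 in any library.

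Over the 790 pairs the median difference in copy share between Old and Young was 0.06 percentage points. Among the 478 pairs with at least 1000 reads, the Tpm3 pair moved most, by 66.1 points, and 8 moved by at least 10 points. Without that minimum, 56 of the 790 moved by at least 10 points, and a pair of few reads moved further, by 70.0 points. Next to the Tpm3 pair among the 478, and named after its values were seen, was Gm12411 of Rpl21. It moved the other way, from 31.3% in Young to 0.3745% in Old. Between the library labelled cKO and WT the Tpm3 pair ranked 116 of 527 with 1.28 points, and 21 pairs moved by at least 10 points. That was more than between Old and Young, but only with the minimum of 1000 reads. Without it, 54 of 835 pairs moved that far, against the 56 of 790 above. Of the 21, Gm12070 of Gapdh, also named after its values were seen, held 70.3% of its pair in WT and 4.60% in the library labelled cKO.

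**Figure D5:**
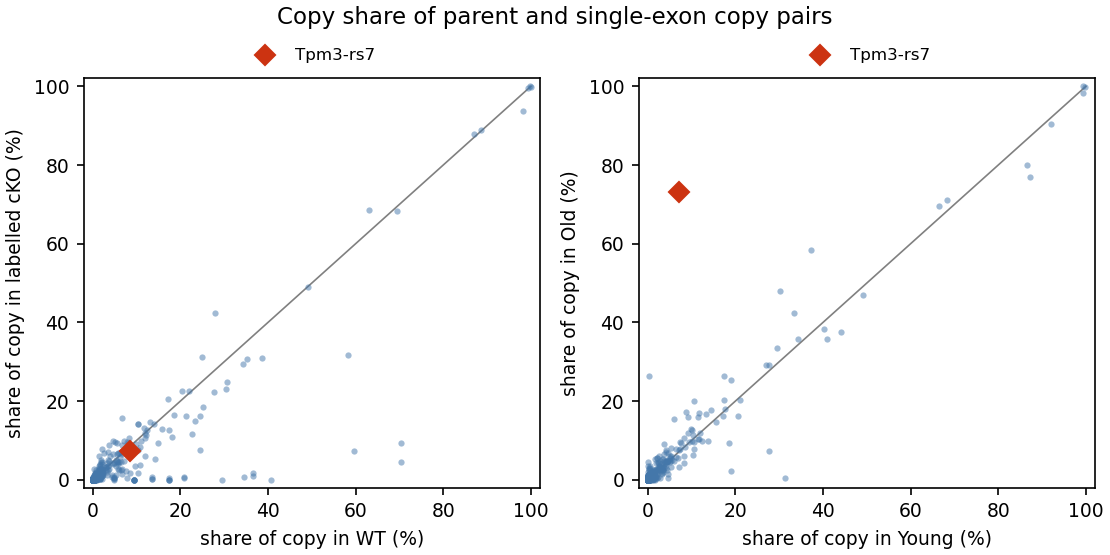
Share of reads assigned to the copy (percent of the pair) for single-exon copies and their parents with at least 1000 reads over the pair, in the library labelled cKO against WT (left, 527 pairs) and Old against Young (right, 478 pairs); the line marks equal shares. The Tpm3 pair (red diamond) lies near the line on the left and at 7.06% in Young against 73.15% in Old on the right.

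The proteins that share the filament with tropomyosin were read from 4 lists. The first holds tropomodulins and leiomodins, which cap filament ends, calponins and caldesmon, which lie along the filament, and troponins, of which 10 of 19 genes were listed and 6 had at least 100 reads. Between the library labelled cKO and WT, 1 of the 6 was higher and none lower (4.22% called over all genes). The one was Cnn1, a calponin of smooth muscle, with 667 reads against 116 and a ratio of 5.65 (4.63 to 6.94). Medians for these lists and for all genes are over genes with at least 20 reads in the 2 libraries together. Here 8 genes of the list gave a median log2 ratio of 0.07, where that of all genes was -0.015. Between Old and Young Cnn1 also rose, with 212 reads against 76 (3.05-fold, 2.34 to 4.02), and Cnn3 fell, with 101 reads against 402 (3.635-fold lower, 2.92 to 4.57). The median there, over 9 genes of the list, was 0.48 where that of all genes was -0.06 (8.56% called over all genes). That of the 14 platelet markers was 0.61. Against WT in place of Young, Cnn1 in Old was at 1.83 (1.45 to 2.32) and did not pass the rule, whereas Cnn3 was 3.597-fold lower and passed (8.75% called over all genes).

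The most read genes of that list did not pass the rule in either comparison. Cnn2, the calponin of nonmuscle cells, was at 1.32 in the library labelled cKO over WT and 1.39 in Old over Young. Cald1, caldesmon, was at 1.02 and 1.66. Tmod3, the widely expressed tropomodulin, was at 0.843 and 1.14, and Tnnt1, a troponin T of slow muscle, at 1.07 and 1.41.

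Of the 6 actins only Actb and Actg1, the cytoplasmic actins, had at least 100 reads. Actg1 rose in the library labelled cKO, with 184462 reads against 81285 in WT (2.23-fold, 2.21 to 2.25). Actb had 65051 against 43246 (1.48-fold). In Old over Young neither passed, with 1.19 for Actg1 and 1.12 for Actb. Against Young the library labelled cKO was at 3.09 for Actg1 and 1.64 for Actb, so both actins were higher there with either reference. The tropomyosin sum was at 0.896 of WT but at 1.12 of Young.

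None of the 12 genes of myosin II and its regulators with at least 100 reads passed the rule in either comparison, where 4.22% and 8.56% of all genes did, so a count of 0 lies near the background. The 16 genes of the list with at least 20 reads in the 2 libraries together had median log2 ratios of 0.17 and 0.29. They include Myh10, Myh11, Myl6b and Myl12b, each with fewer than 100 reads. The medians of all genes were -0.015 and -0.06, and those of the platelet markers with at least 20 reads were -0.11 and 0.61. Myh9, the heavy chain of platelet myosin, was at 1.57 in the library labelled cKO over WT and 1.485 in Old over Young. The light chain gene Myl9 was at 1.44 and 1.45, and Myl6 at 1.16 and 1.51. Ppp1cb, the catalytic subunit of myosin phosphatase, was at 0.978 and 0.826. For cofilins, other severing factors and formins, none of 14 (library labelled cKO and WT) or 15 (Old and Young) genes passed either. These counts of 0 again lie near the 4.22% and 8.56% of all genes. Over the 16 genes of that list with at least 20 reads, the medians were 0.07 and 0.15. Cfl1, the cofilin that severs bare filaments, was at 0.795 in the library labelled cKO over WT and 1.58 in Old over Young. Against Young in place of WT, Cfl1 in the library labelled cKO was at 0.904. Gsn, gelsolin, was at 1.77 and 1.05. Inf2, a formin, was at 1.417 and 1.23, and Dstn, the cofilin relative destrin, at 0.942 and 1.925.

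The genes whose pattern over the 4 libraries was most like that of a tropomyosin were sought by the root mean square distance in log2 level, each gene centred on its own mean, among 4702 protein-coding genes with at least 100 reads in every library. Nearest to Tpm4 were Lamtor2 (distance 0.02), Arpc2 (0.03) and Usp32 (0.03). Arpc2, a subunit of the Arp2/3 complex that nucleates branched actin, was at 942, 741, 965 and 833 scaled RPM in WT, Young, Old and the library labelled cKO. Nearest to Tpm1 were Ptgs1 (0.03), Mrvi1 (0.04) and Ehbp1l1 (0.04). Ptgs1, the cyclooxygenase of platelets, was at 551, 519, 764 and 672 scaled RPM in the same order. Nearest to the sum of Tpm3 and Tpm3-rs7 were Ndufa1 (0.01), Klhl6 (0.02) and Ccdc12 (0.02). The members were less like each other: Tpm1 ranked 1046 in distance from Tpm4 (0.215) and Tpm2 ranked 4236. The single values of Tpm3 and Tpm3-rs7, which share reads, ranked 4632 and 4699. In distance from the sum of that pair, Tpm4 ranked 776 (0.156), Tpm1 1375 (0.206) and Tpm2 4286 (0.532). With 4 libraries many genes lie this close, and the distances are a description.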

How the data were processed

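Platelet RNA was measured by RNA-seq in 4 libraries. The submitters' processing notes name DESeq2 1.20.0, featureCounts 1.5.0-p3, HISAT2 2.0.5, CASAVA and mm10, with no role or order. The authors deposited 2 tables of signal by gene, scaled within each table; the files also hold a deposited log2 fold change and a gene length. Each signal value is a multiple of a step that is constant within a library, so reads were recovered by division: 100.0% of values came out whole within 0.02 read. With the recovered reads, a count test was not run because each group has 1 library. A further 4 per-sample columns match no sample and were not used.

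TMM scaling (edgeR 4.0.16, R 4.3.3) set the library sizes, per pair of libraries for ratios and over all 4 for levels. Ratios carry exact 95% Clopper-Pearson intervals (SciPy 1.17.1). A gene was called higher or lower when its larger library had at least 100 reads and the nearer interval bound was at least 2-fold from 1. A value of 0 allows up to 3 reads, 0.162 to 0.169 RPM by library. Sequences, transcripts and exons came from GENCODE M21 (mm10), in which 17975 of 17995 gene IDs were found, and gene and copy were aligned with Biopython 1.88.

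The members, lists and comparisons were chosen with earlier results of these data known. Named genes were the 5 members, Elavl1, list genes past the size rule plus up to 4 of the most abundant of each list, the 3 nearest in pattern to Tpm4, Tpm1 and the pair, and copies opposite to their parents; the few others are marked in the text. The computation of intervals and calls was tested on simulated data.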

Additional observations from a re-analysis of the deposited data

How the results depend on the processing

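No paired analysis was possible because each group has 1 library. Differences between mice, library preparation and groups cannot be told apart, and depth limits only genes with few reads. Over 4 scalings (TMM, total reads, median of ratios, upper quartile) Tpm3 in Old over Young ranged from 0.289 to 0.356, Tpm3-rs7 from 10.4 to 12.8, Tpm2 from 2.19 to 2.70, Tpm1 from 1.37 to 1.69 and Tpm4 from 1.198 to 1.473. For the pair, total reads gave 1.023 in the library labelled cKO over WT and 1.001 in Old over Young, where median of ratios gave 1.139, upper quartile 1.231 and WT as reference 1.153. For all 5 genes, the first comparison gave 0.927 with total reads, 0.912 with median of ratios and 1.116 against Young, and the second gave 1.174 with total reads, 1.335 with median of ratios, 1.444 with upper quartile and 1.073 against WT. Counts over all genes moved with the rule. In the library labelled cKO over WT, 158 were higher and 107 lower, against 307 and 264 with a minimum of 20 reads, 422 and 419 with none, and 454 and 394 with a bound of 1.5-fold. In Old over Young, 278 and 280 became 602 and 592, 888 and 850, and 676 and 842; with total reads they were 225 and 425. Opposite pairs in Old over Young numbered 3 by sequence and 1 by name.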
